A study of Mus musculus with 2 samples.

Results

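Genes of blood vessels were examined in mouse breast tumour tissue: 41 genes of endothelial cells, of sprouting tip cells, of pericytes and of the secreted factors that act on them, out of 35602 gene symbols in the count table. The genes were taken by symbol, and all 41 were found. They comprise 19 genes of endothelial identity, 4 tip cell genes, 8 secreted angiogenic factors, 2 neuropilin co-receptors and 8 pericyte genes. The tumours came from mice that had received a PD-1 inhibitor by intraperitoneal injection together with acupuncture, and from mice that had received that injection without acupuncture. The PD-1 inhibitor is thus shared by both groups, and tumours without it were not analysed here. Each group was 1 RNA-seq library, with 60752043 counts for the PD-1 inhibitor with acupuncture and 105728292 counts for the PD-1 inhibitor alone. The labels used here name neither the mouse strain, the age, the tumour line nor how many animals a library holds. Blood vessel growth is among the tumour features that the series' design text takes up.

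Blood vessels are tubes of endothelial cells wrapped by pericytes. New vessels sprout when ligands of the VEGF family reach the receptors Kdr and Flt1, and the leading tip cell displays the Notch ligand Dll4, which keeps its neighbours from becoming tip cells. Angpt1, made by mural and stromal cells, activates the receptor Tek and favours quiet, covered vessels, whereas Angpt2, released by endothelium, can oppose it. Endothelial Pdgfb draws pericytes, which carry its receptor Pdgfrb. In tumours, low oxygen is a known inducer of several of these factors.

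With 1 library per group there is no replicate check and no test between groups, and every interval here is a 95% counting interval (exact Clopper-Pearson on the split of the combined count), which covers counting error only. Levels are CPM, read counts per 1000000 of the library after scaling by TMM, a method that sets the bulk of the genes level between libraries. A ratio is the level with acupuncture divided by the level with the PD-1 inhibitor alone, and a gene was called higher or lower when the levels differed 2-fold or more and the interval did not hold 1. Tumour epithelium was evident in both libraries, with the keratin Krt8 at 1060 CPM with acupuncture and 1564 CPM without, and Krt18 at 988 CPM with acupuncture and 1432 CPM without. The libraries also differed in other tissue: the summed level of 12 skeletal muscle genes was 2224 CPM with acupuncture and 238 CPM without, and that of 14 adipocyte genes was 2464 CPM with acupuncture and 672 CPM without. In bulk tissue, fewer cells of a type and less RNA per cell cannot be told apart.

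Of the 4 tip cell genes 3 were lower, as was the secreted factor Pgf, and a pair of pericyte genes was higher in the acupuncture library, while the endothelial identity genes stayed within 2-fold. Of the 41 genes 4 were called lower, namely Esm1, Pgf, Apln and Dll4, which is 9.76% of them against 4.90% of the 18687 genes tested, those whose counts summed to 20 or more over both libraries. Of the 41 genes 2 were called higher, Abcc9 and Rgs5, which is 4.88% against 9.21% of all genes tested. Among the 15237 genes with 100 or more counts in sum, a minimum that each of the 41 genes also met, 3.28% were called lower and 6.92% higher. Without regard to size, the interval lay below 1 for 25 of the 41 genes (61.0%, against 34.8% of all genes tested) and above 1 for 12 of them (29.3%, against 35.1%). At 100 or more counts the background was 39.6% below and 38.0% above 1. Intervals narrow as counts grow, so these shares, here and by group below, depend on counts as well as on ratios. The median combined count was 3920 for the 41 genes and 2521 for all genes tested. The median log2 ratio was -0.36 over the 41 genes and 0.0003 over all genes tested.

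**Figure D1:**
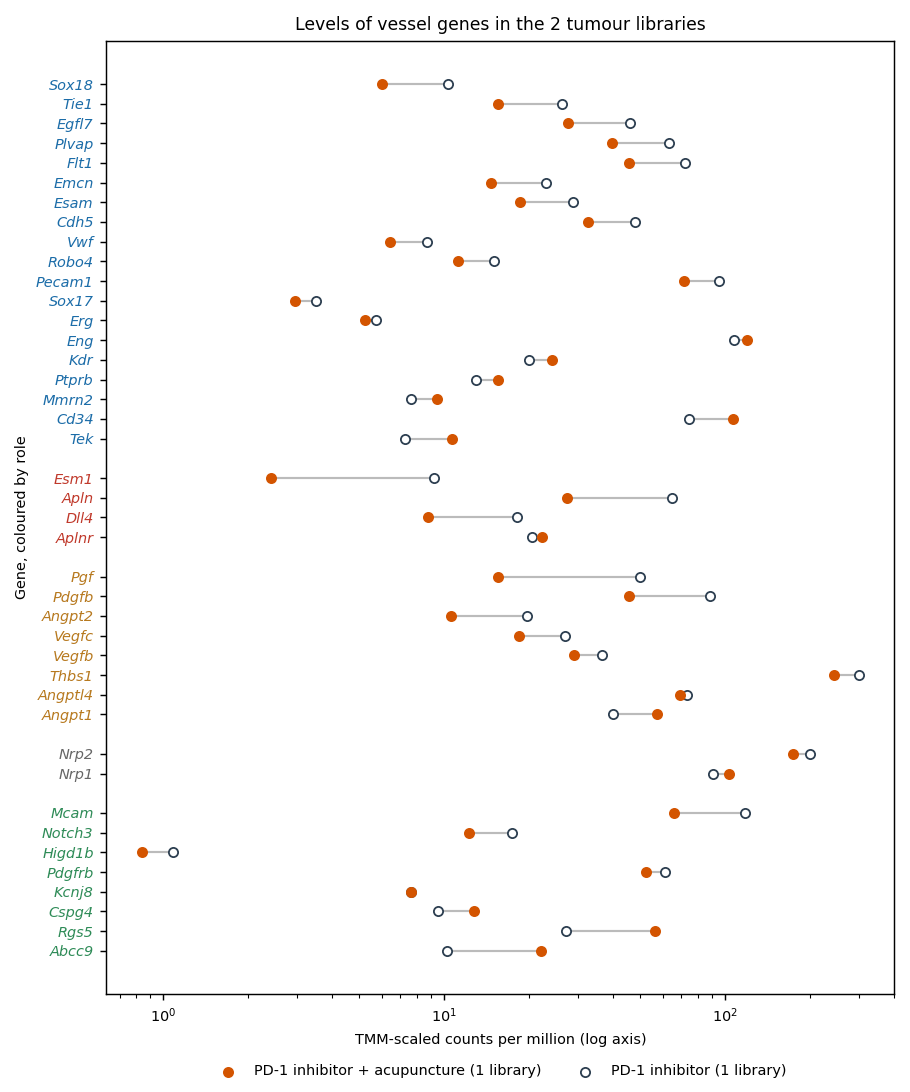
Level of each of the 41 genes in TMM-scaled CPM (horizontal log axis), with the library of the PD-1 inhibitor with acupuncture as filled points and the PD-1 inhibitor alone as open points, grouped by role. Esm1, Apln, Dll4 and Pgf have the filled point far to the left, Rgs5 and Abcc9 have it to the right, and the points of Kcnj8 coincide at 7.64 CPM.

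The sequences just before the transcription start of the 6 genes called lower or higher are shown because these genes were past the 2-fold limit. They are the 250 bases upstream of the start in RefSeq's promoter table for GRCm38.p6, read 5′ to 3′ on the strand of the gene. The counts themselves were made on another build, and no coordinate of theirs is used. Capitals mark ACGTG or GCGTG, or their reverse complements CACGT or CACGC, the letters at the core of the hypoxia response element.
Esm1 (chr13:113209409-113209658, plus strand): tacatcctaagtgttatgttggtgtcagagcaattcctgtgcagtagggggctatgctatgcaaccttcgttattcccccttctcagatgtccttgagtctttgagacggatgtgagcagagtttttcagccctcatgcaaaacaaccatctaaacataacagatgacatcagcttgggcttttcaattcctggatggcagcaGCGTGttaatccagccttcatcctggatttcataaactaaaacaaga
Apln (chrX:48034854-48035103, minus strand): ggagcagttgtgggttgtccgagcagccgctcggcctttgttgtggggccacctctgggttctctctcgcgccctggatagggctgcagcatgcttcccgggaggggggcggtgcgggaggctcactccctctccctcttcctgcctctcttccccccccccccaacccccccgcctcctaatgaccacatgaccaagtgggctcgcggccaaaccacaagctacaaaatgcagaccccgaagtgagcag
Dll4 (chr2:119325534-119325783, plus strand): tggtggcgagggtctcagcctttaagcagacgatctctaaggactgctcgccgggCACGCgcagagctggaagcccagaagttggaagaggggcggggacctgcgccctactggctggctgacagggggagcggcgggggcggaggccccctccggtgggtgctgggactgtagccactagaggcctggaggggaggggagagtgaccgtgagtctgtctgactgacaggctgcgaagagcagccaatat
Pgf (chr12:85177314-85177563, minus strand): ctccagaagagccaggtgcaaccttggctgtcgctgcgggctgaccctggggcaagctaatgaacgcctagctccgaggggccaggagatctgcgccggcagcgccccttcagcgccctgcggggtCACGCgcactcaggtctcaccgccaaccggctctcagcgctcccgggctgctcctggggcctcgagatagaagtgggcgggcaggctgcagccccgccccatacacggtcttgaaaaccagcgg
Rgs5 (chr1:169655251-169655500, plus strand): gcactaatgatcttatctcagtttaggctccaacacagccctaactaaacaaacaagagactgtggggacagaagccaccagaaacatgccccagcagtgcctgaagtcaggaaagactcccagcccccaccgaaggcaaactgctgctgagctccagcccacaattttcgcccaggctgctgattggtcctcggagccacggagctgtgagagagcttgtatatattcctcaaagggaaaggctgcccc
Abcc9 (chr6:142702275-142702524, minus strand): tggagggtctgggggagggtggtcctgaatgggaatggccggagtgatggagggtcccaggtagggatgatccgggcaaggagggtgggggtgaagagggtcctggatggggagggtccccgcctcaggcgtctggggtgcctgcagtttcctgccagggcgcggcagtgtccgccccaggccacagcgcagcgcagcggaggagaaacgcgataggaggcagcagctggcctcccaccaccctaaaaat

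Each of Esm1, Dll4 and Pgf held 1 such core, starting at position -47 in Esm1, -195 in Dll4 and -124 in the upstream of the 2 Pgf windows, counted back from the transcription start. The windows of Apln, Rgs5 and Abcc9 and the other Pgf window, which is not printed, held none. Windows were found for 24 of the 41 genes, 29 windows in all, and 12 of them (41.4%) held a core, against 12679 of all 32851 windows (38.6%). The 2 cores differed: ACGTG was in 1 of the 29 windows (3.45%) against 16.6% of all windows, and GCGTG in 12 of the 29 (41.4%) against 28.2%. GGAA, the core of sites for ETS factors such as Erg, was found on either strand in 24 of the 29 windows (82.8%) and in 93.4% of all windows. It occurred 3 times in Esm1, Apln and Rgs5, 2 times in Dll4 and Abcc9, and not in either Pgf window. These matches describe letters in the window only.

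Of the 4 tip cell genes, 3 were called lower with acupuncture and the receptor gene Aplnr was not. That is 75% called lower, against 3.28% of all genes with 100 or more counts. Esm1, a proteoglycan secreted by tip cells, had 152 counts with acupuncture and 944 with the PD-1 inhibitor alone, or 2.42 CPM with acupuncture and 9.25 CPM without. It was 3.83-fold lower (95% counting interval 3.22 to 4.57), the largest ratio in either direction among the 41 genes. Apln, the tip cell peptide apelin, stood at 27.3 CPM with acupuncture and 64.6 CPM without, 2.36-fold lower (2.24 to 2.49). Its receptor Aplnr, found on veins and growing vessels, was at 22.3 CPM with acupuncture and 20.6 CPM without, a ratio of 1.09 (1.01 to 1.16). Dll4 was at 8.74 CPM with acupuncture and 18.3 CPM without, 2.09-fold lower (1.90 to 2.30). It is the called gene nearest to the limit on the lower side, and at total count scaling it fell short of it, at a log2 ratio of -0.96. The summed counts of the 4 genes were 0.104 of those of the 19 endothelial identity genes with acupuncture and 0.166 without, so the share of tip cell counts was 1.60-fold lower (1.54 to 1.66), a comparison that needs no library scaling. Apln held the most counts of the 4 genes, and without it the shares were 0.0573 with acupuncture and 0.0710 without, 1.24-fold lower (1.18 to 1.31). Per kilobase of exon, Apln ranked 15 of the 41 genes with acupuncture, at 8.68 CPM, and 8 without, at 20.5 CPM. Which cells made Apln was not tested, so these shares do not measure the number of tip cells.

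Of the 8 secreted factors 1, Pgf, was called lower and none higher. Pgf, placental growth factor, a ligand of Flt1, stood at 15.6 CPM with acupuncture and 50.02 CPM without, 3.20-fold lower (2.99 to 3.43). Pdgfb was at 45.5 CPM with acupuncture and 88.4 CPM without, 1.94-fold lower (1.86 to 2.03). Angpt2 was at 10.6 CPM with acupuncture and 19.7 CPM without, 1.86-fold lower (1.70 to 2.03). Pdgfb and Angpt2 were the genes nearest to the 2-fold limit on its far side. The other VEGF family members among the 8 factors differed less than Pgf. Vegfc, which drives lymphatic growth, was at 18.5 CPM with acupuncture and 27.0 CPM without, a ratio of 0.687 (0.641 to 0.736). Vegfb, a Flt1 ligand linked to fatty acid uptake, was at 28.9 CPM with acupuncture and 36.4 CPM without. Its ratio was 0.795 (0.752 to 0.841). Vegfd, a family member outside the 8 factors, went the other way, with a ratio of 1.71 (1.51 to 1.95). Vegfa was not among the 8 factors and is not reported here.

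Thbs1, thrombospondin, an inhibitor of vessel growth, had the highest level per length of the 41 genes in both libraries, at 40.2 CPM per kilobase of exon with acupuncture and 49.2 without. Its ratio was 0.817 (0.801 to 0.833). Angptl4, a lipase inhibitor that responds to low oxygen and to fatty acids, differed little, at 69.5 CPM with acupuncture and 73.3 CPM without (ratio 0.948, 0.913 to 0.984). Angpt1 went the other way, at 57.2 CPM with acupuncture and 39.9 CPM without, 1.43-fold higher (1.37 to 1.5). Over the 8 factors 1 was called lower, none higher and 7 had intervals below 1. That is 12.5% called lower and 87.5% below 1, against 3.28% and 39.6% of all genes with 100 or more counts. The 8 factors were well counted, with a median combined count of 6878.5, which narrows their intervals. The median log2 ratio of the 8 factors was -0.44, which turned to 0.11 when the epithelial genes were set to a median of 0. The co-receptors lay close to 1. Nrp1, which binds VEGF family ligands and semaphorins, was at 104 CPM with acupuncture and 90.5 CPM without (ratio 1.14, 1.11 to 1.18), and Nrp2, typical of veins and lymphatic vessels, was at 174 CPM with acupuncture and 201 CPM without (ratio 0.867, 0.847 to 0.887). Tumour and myeloid cells also make several of these factors and co-receptors.

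**Figure D2:**
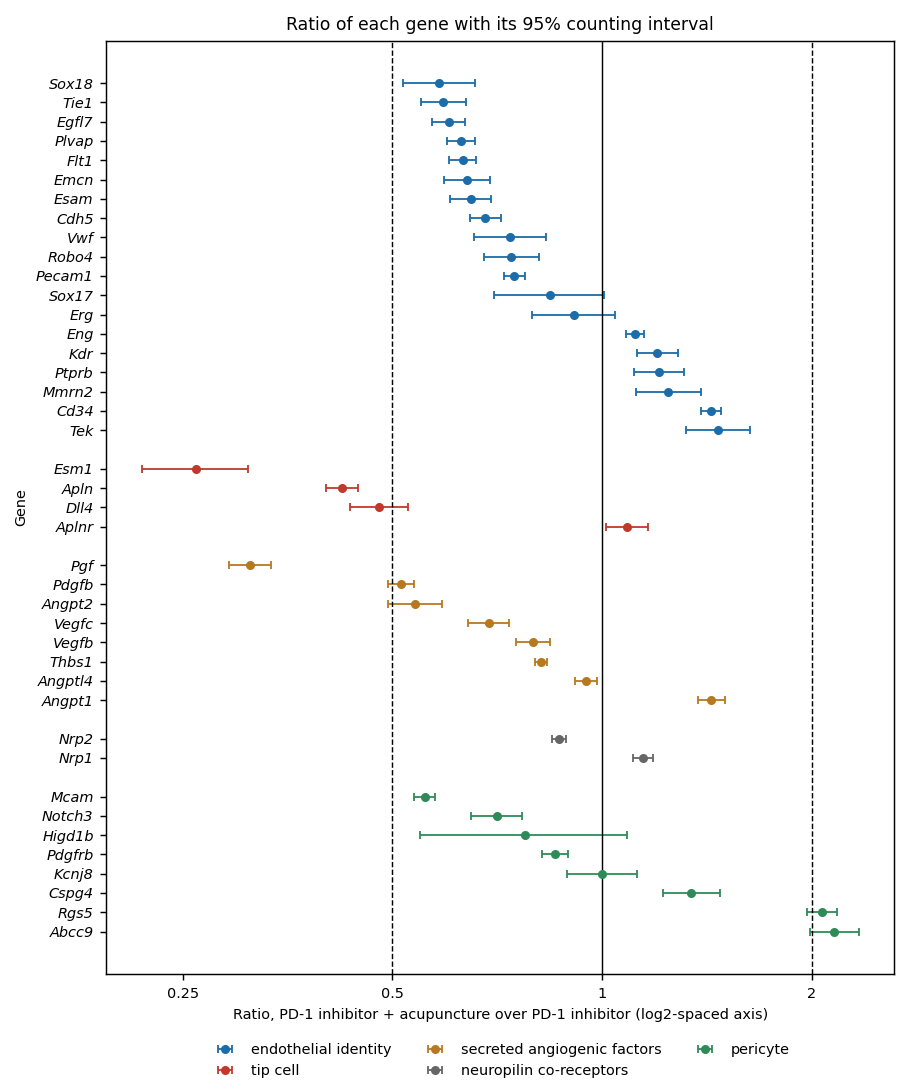
Ratio of the PD-1 inhibitor with acupuncture over the PD-1 inhibitor alone for each of the 41 genes (horizontal log2-spaced axis), with bars for the 95% counting interval, colours for the role and dashed lines at 0.5 and 2. Endothelial identity genes lie between 0.584 and 1.47, whereas Esm1, Pgf, Apln and Dll4 lie left of 0.5 and Rgs5 and Abcc9 right of 2.

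None of the 19 endothelial identity genes was called, and they divided by direction: the interval lay below 1 for 11, above 1 for 6 and across 1 for 2. That is 57.9% below and 31.6% above, against 39.6% and 38.0% of all genes with 100 or more counts. The median log2 ratio of the 19 genes was -0.43, which turned to 0.12 with the epithelial genes set to a median of 0. The junction and surface genes lay within the 2-fold limit. Pecam1, the adhesion molecule CD31 by which vessels are stained, had 71.3 CPM with acupuncture and 95.3 CPM without, a ratio of 0.748 (0.722 to 0.775). Cdh5, the cadherin of endothelial junctions, was at 32.5 CPM with acupuncture and 47.8 CPM without (ratio 0.680, 0.645 to 0.716). The junction protein Esam, the sialomucin Emcn of veins and capillaries, and Plvap, which forms the diaphragms of fenestrated endothelium, had ratios of 0.648, 0.639 and 0.628. Cd34, which stromal progenitor cells also carry, stood apart at 107 CPM with acupuncture and 74.8 CPM without, 1.43-fold higher (1.38 to 1.48).

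Receptors of the endothelium went both ways. The VEGF receptor Kdr was at 24.2 CPM with acupuncture and 20.1 CPM without, a ratio of 1.2 (1.12 to 1.28), while Flt1, a receptor that can act as a sink for VEGF ligands, was at 45.4 CPM with acupuncture and 72.1 CPM without, a ratio of 0.630 (0.603 to 0.658). A like contrast held for the angiopoietin receptors. Tek was at 10.7 CPM with acupuncture and 7.28 CPM without, 1.47-fold higher (1.32 to 1.63), the highest ratio short of the 2-fold limit. Its partner Tie1 was at 15.6 CPM with acupuncture and 26.4 CPM without, a ratio of 0.591 (0.549 to 0.637). Ptprb, a phosphatase that restrains Tek, had a ratio of 1.21 (1.11 to 1.31), and Eng, a co-receptor for ligands of the TGF-beta family, was at 120 CPM with acupuncture and 108 CPM without, with a ratio of 1.11 (1.08 to 1.15). Robo4, a guidance receptor of vessels, was at 11.2 CPM with acupuncture and 15.1 CPM without, a ratio of 0.741 (0.677 to 0.810) that was itself the median of the group.

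Among the transcription factors, Sox18 was at 6.04 CPM with acupuncture and 10.3 CPM without (ratio 0.584, 0.518 to 0.657), the lowest of the endothelial identity genes. Sox17, of arteries, and Erg, an ETS factor of endothelium, had intervals that held 1, with ratios of 0.841 (0.700 to 1.01) and 0.910 (0.792 to 1.04). At these depths a difference was not detectable for either. The secreted proteins also divided. Egfl7 was at 27.7 CPM with acupuncture and 46.0 CPM without, a ratio of 0.602 (0.569 to 0.636), Vwf, the platelet-binding factor that megakaryocytes also make, at 6.42 CPM with acupuncture and 8.71 CPM without, a ratio of 0.737 (0.654 to 0.830), and the matrix protein Mmrn2 at 9.46 CPM with acupuncture and 7.60 CPM without, a ratio of 1.24 (1.12 to 1.39). Of 6 platelet and megakaryocyte genes measured 3 were called lower and none higher, with a summed level of 20.4 CPM with acupuncture and 60.4 CPM without. Most of that sum was Pf4, at 14.0 CPM with acupuncture and 49.5 CPM without. The interval lay below 1 for 5 of the 6 genes, among them Itga2b at a ratio of 0.760, and that of Gp9 held 1. The part of these cells in the ratio of Vwf was not tested.

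The 8 pericyte genes ran from a ratio of 0.556 for Mcam to 2.15 for Abcc9, and contained the only genes of the 41 that were called higher. That is 2 of 8 (25%), against 6.92% of all genes with 100 or more counts, and none was called lower. Abcc9, the regulatory subunit of an ATP-sensitive potassium channel of pericytes and muscle, had 1389 counts with acupuncture and 1048 with the PD-1 inhibitor alone, or 22.1 CPM with acupuncture and 10.3 CPM without, 2.15-fold higher (1.98 to 2.33). Rgs5, a regulator of G protein signalling that marks pericytes, was at 56.3 CPM with acupuncture and 27.3 CPM without, 2.06-fold higher (1.96 to 2.17). Kcnj8, the pore-forming partner of Abcc9 in that channel, was at 7.64 CPM in both libraries, a ratio of 1.001 (0.891 to 1.12). The proteoglycan Cspg4, known as NG2, was at 12.8 CPM with acupuncture and 9.55 CPM without, 1.34-fold higher (1.22 to 1.47). Pdgfrb, which fibroblasts share, was at 52.5 CPM with acupuncture and 61.4 CPM without (ratio 0.855, 0.820 to 0.892). Notch3, the Notch receptor of mural cells, was at 12.3 CPM with acupuncture and 17.4 CPM without (ratio 0.705, 0.647 to 0.768).

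Mcam, an adhesion molecule of pericytes, endothelium and some tumour cells, was the lowest of this group, at 65.8 CPM with acupuncture and 118 CPM without (ratio 0.556, 0.537 to 0.576). Higd1b, a mitochondrial protein enriched in pericytes, was the least counted of the 41 genes, with 53 counts with acupuncture and 111 counts without, and its interval held 1 (ratio 0.775, 0.548 to 1.08). The 8 genes had a median log2 ratio of -0.11. Their summed counts were 0.394 of those of the endothelial identity genes with acupuncture and 0.374 without, 1.05-fold higher (1.03 to 1.08), and 1.496-fold higher when Mcam and Eng, the most abundant gene of each group, were left out. Skeletal muscle genes were higher in the same library, with 12 of 12 called and a summed level 9.36 times that with the PD-1 inhibitor alone, as were adipocyte genes, with 13 of 14 called, and their part in the levels of Abcc9 and Rgs5 was not tested. The part of these tissues in the ratios of the endothelial genes, of Angpt1 and of the gene pairs below was not tested either.

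Ratios of one gene to another within a library do not depend on how the libraries were scaled. Of 19 such pairs, chosen after the values were seen, 11 were lower and 8 higher with acupuncture. Some set a ligand against its receptor or a partner, and others set ligands, receptors or marker genes against each other. Angpt2 had 0.186 times the counts of Angpt1 with acupuncture and 0.494 times without, 2.66-fold lower (2.41 to 2.94). Apln had 1.23 times the counts of Aplnr with acupuncture and 3.14 times without, 2.56-fold lower (2.35 to 2.80). Pdgfb had 0.866 times the counts of Pdgfrb with acupuncture and 1.44 times without, 1.66-fold lower (1.57 to 1.77). These pairs set genes with low ratios against genes with higher ones, so they restate the single gene values without a scaling.

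The receptor pairs differed as well. Tie1 had 1.46 times the counts of Tek with acupuncture and 3.63 times without, 2.48-fold lower (2.18 to 2.82). Kdr had 0.532 times the counts of Flt1 with acupuncture and 0.280 times without, 1.90-fold higher (1.76 to 2.06). Against Pecam1, Esm1 was 2.86-fold lower (2.40 to 3.43), Rgs5 2.76-fold higher (2.60 to 2.94) and Abcc9 2.88-fold higher (2.63 to 3.14). The potassium channel pair differed in the same way, with Abcc9 at 2.89 times the counts of Kcnj8 with acupuncture and 1.34 times without, 2.15-fold higher (1.87 to 2.48).

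**Figure D3:**
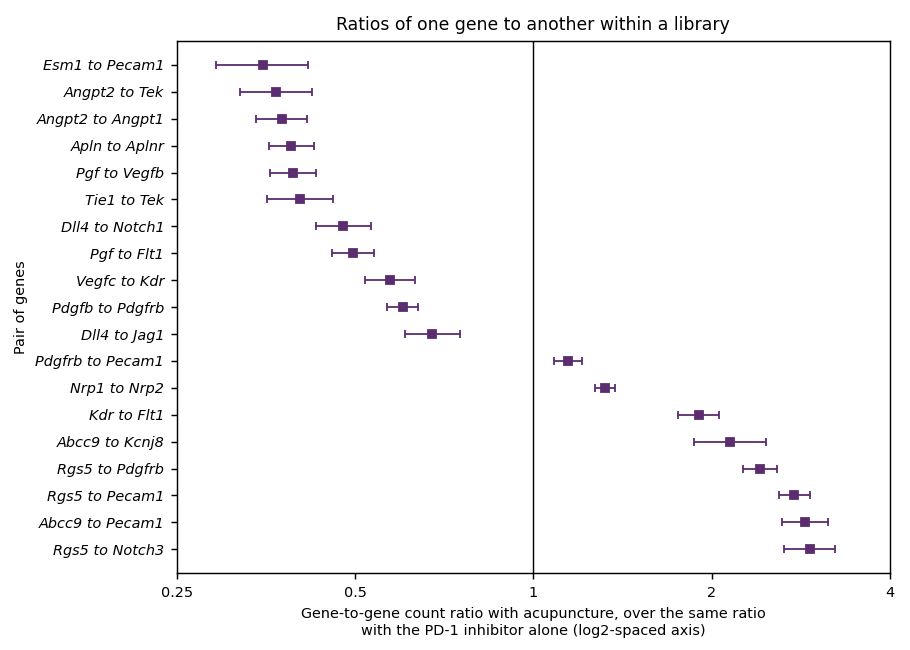
Count ratio of one gene to another in the library of the PD-1 inhibitor with acupuncture, divided by that with the PD-1 inhibitor alone (horizontal log2-spaced axis), with 95% counting intervals, for 19 pairs. Esm1 to Pecam1 is lowest at 0.349 and Rgs5 to Notch3 highest at 2.93.

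Other genes of the same pathways were described by their counts. For this list and those that follow, the shares of all genes tested were 4.90% called lower and 9.21% called higher. Among 15 genes of a wider list of tip cells and sprouting, which holds Pgf, Angpt2 and Mcam as well, 3 were called lower and none higher, with a median log2 ratio of -0.70. Besides Pgf, these were the potassium channel subunit Kcne3, at 1.03 CPM with acupuncture and 5.51 CPM without (5.34-fold lower, 4.12 to 7.01), and the activin subunit Inhbb, at 25.4 CPM with acupuncture and 56.0 CPM without (2.20-fold lower, 2.08 to 2.33). Plod1, a collagen-modifying enzyme and the most counted of the list, had a ratio of 0.594 (0.577 to 0.612). Of 16 Notch pathway genes 1 (6.25%) was called lower, near the share of all genes tested, and none higher, with a median of -0.49. That gene was the Notch target Hes1, at 21.8 CPM with acupuncture and 50.1 CPM without (2.30-fold lower, 2.17 to 2.44). The related genes went different ways. Hey1 had a ratio of 0.603 (0.478 to 0.755) and Heyl of 1.12 (0.967 to 1.31). Hey2, with 25 counts with acupuncture and 21 without, had a ratio of 1.93 (1.04 to 3.63). Notch1, the endothelial receptor of Dll4, had a ratio of 1.002 (0.959 to 1.05), and Rbpj, the DNA-binding partner of Notch and the most counted of the list, a ratio of 0.654 (0.639 to 0.669).

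Of 21 other genes of the VEGF, angiopoietin and related pathways that could be measured, 1 (4.76%) was called lower and none higher. Their median was 0.13. The vasodilator adrenomedullin, Adm, was at 10.9 CPM with acupuncture and 32.8 CPM without (2.999-fold lower, 2.76 to 3.26), whereas the collagen Col18a1, the source of endostatin, had a ratio of 0.8652 (0.8525 to 0.8781). In this list of 21 the interval lay above 1 for 10 genes and below 1 for 9. Growth factors above 1 included Pdgfd at 1.87, Fgf2 at 1.78, Vegfd at 1.71 and Hgf at 1.63. Pdgfa and Pdgfc were below 1, at 0.579 and 0.687. Of 23 other endothelial genes 1 (4.35%) was called lower and none higher, with a median of -0.07. Cldn5, the tight junction protein of endothelium, was at 4.05 CPM with acupuncture and 12.6 CPM without (3.12-fold lower, 2.72 to 3.58), and Ets1, an ETS factor and the most counted of them, had a ratio of 1.26 (1.23 to 1.29). Of 10 basement membrane genes none was called in either direction, with a median of -0.28 and ratios of 0.683 for the laminin chain Lama5, the most counted, and 1.67 for nidogen, Nid1, the farthest from 1.

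Genes of particular vessel types included several that were higher. Of 19 arterial, venous and capillary genes 5 were called higher and 1 lower, with a median of 0.18. Those higher were Cd36, a fatty acid transporter of capillaries and adipocytes, at 154 CPM with acupuncture and 34.0 CPM without (4.53-fold, 4.36 to 4.71), Ly6c1 (2.85-fold) and Ly6a (2.56-fold), which capillaries share with leukocytes, and the venular genes Ackr1 (7.12-fold, from 136 counts with acupuncture and 31 counts without) and Sele (2.87-fold). Gpihbp1, which anchors lipoprotein lipase in capillaries, was lower and lay at the limit, at 10.1 CPM with acupuncture and 20.3 CPM without (2.005-fold, 1.83 to 2.195). Of 7 genes of high endothelial venules, the vessels by which lymphocytes enter lymph nodes, 6 were called higher, and of 8 lymphatic endothelial genes 5, none lower in either list. Ackr1 and Sele are called genes of both the venule list and the arterial, venous and capillary list. Glycam1, of high endothelial venules and lactating mammary gland, had 4923 counts with acupuncture and 4 counts without, and Ccl21a, a lymphoid chemokine whose reads may be shared with near-identical copies, 3995 counts with acupuncture and 25 counts without, while the lymphatic glycoprotein Pdpn, which stromal cells share, had a ratio of 1.21. The other lymphatic genes called higher had few counts: Mmrn1 and Stab2 had 132 counts each with acupuncture against 13 and 19 without, Prox1, the transcription factor of lymphatic identity, had 57 with acupuncture and 19 without, and Reln had 42 with acupuncture and 10 without. The lymphatic genes did not all rise. Flt4 had 230 counts with acupuncture and 597 without, a ratio of 0.625 (0.535 to 0.729), and Lyve1 had a ratio of 1.18 (1.11 to 1.25).

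Mural cell genes outside the 41 were also split. Of 13 such genes 4 were called higher and 2 lower, with a median of 0.63. The 4 were vitronectin, Vtn, at 9.62 CPM with acupuncture and 1.195 CPM without (8.05-fold, 6.61 to 9.86), the metalloreductase Steap4 (2.99-fold), which adipocytes also make, the transcription factor Ebf1 (2.10-fold), shared with adipocytes and B cells, and the guanylate cyclase subunit Gucy1a1 (2.29-fold). The 2 lower ones were subunits or relatives of respiratory chain proteins that respond to low oxygen, Ndufa4l2, at 2.29 CPM with acupuncture and 10.1 CPM without (4.41-fold, 3.70 to 5.29), and Cox4i2, at 1.06 CPM with acupuncture and 2.64 CPM without (2.47-fold, 1.89 to 3.28). Of 11 smooth muscle genes measured 2 were called higher, Des (3.41-fold) and Synpo2 (2.44-fold), both also of skeletal muscle, and none lower. The most counted of them, Smtn, had a ratio of 0.746 and smooth muscle actin, Acta2, a ratio of 0.847. Myh11 and Mylk went the other way, with ratios of 1.43 (1.26 to 1.63) and 1.49 (1.40 to 1.59). Of the 11 genes the interval lay above 1 for 4 and below 1 for 4.

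**Figure D4:**
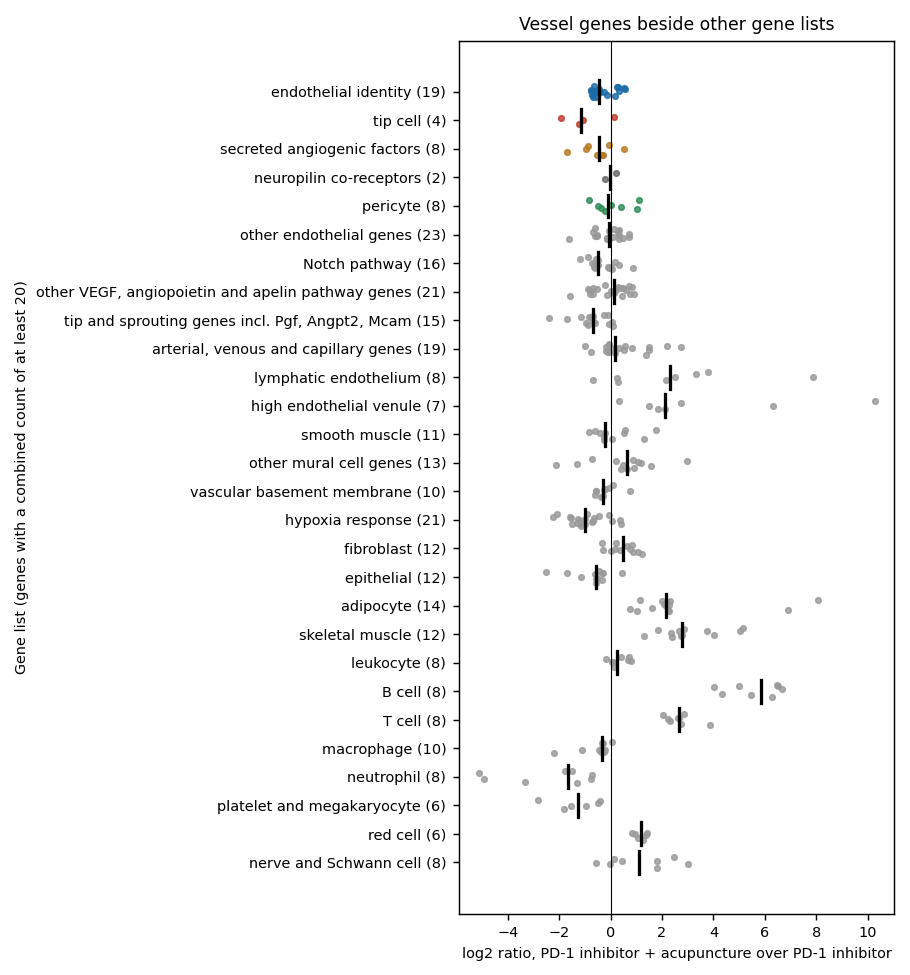
Log2 ratio of the PD-1 inhibitor with acupuncture over the PD-1 inhibitor alone for each gene (points; vertical scatter within a row is for display only) and the median of each list (black bars), for the vessel gene groups in colour and for 23 other lists in grey, with the number of genes in brackets. The tip cell median is at -1.15 and the hypoxia response median at -1.01, while the adipocyte, skeletal muscle and B cell medians are at 2.17, 2.76 and 5.86.

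Several lists of other genes differed between the same libraries. Of 21 hypoxia response genes 11 were called lower and none higher, with a median log2 ratio of -1.01 and a summed level of 3510 CPM with acupuncture and 6949 CPM without. Adm, named above with the VEGF and related pathways, is among these 11. Ndrg1 had the farthest ratio, at 189 CPM with acupuncture and 884 CPM without (4.68-fold lower, 4.59 to 4.77), and Ldha the highest count (1.62-fold lower). The 11 hypoxia genes were lower in the same library as Esm1, Pgf, Apln and Dll4, and their part in those ratios was not tested. Epithelial genes had 3 of 12 called lower and none higher, with a median of -0.55, the called genes being the keratins Krt19 and Krt5 and the claudin Cldn4. Of 12 fibroblast genes 2 were called higher, Fap (2.34-fold) and Dpt (2.12-fold), and none lower, with a median of 0.50, and the most counted, the collagen Col3a1, had a ratio of 1.57.

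Blood and immune lists differed in direction. Of 10 macrophage genes 2 were called lower and none higher, with a summed level of 4459 CPM with acupuncture and 7581 CPM without, and of 8 neutrophil genes 6 were called lower and none higher, at 196 CPM with acupuncture and 603 CPM without. All 8 B cell genes and all 8 T cell genes were called higher, with summed levels of 123 CPM with acupuncture and 2.80 CPM without for B cells and of 130 CPM with acupuncture and 21.8 CPM without for T cells, while none of 8 leukocyte genes was called in either direction. Of 6 red cell genes 4 were called higher and none lower, and of 8 nerve and Schwann cell genes 4 were called higher and none lower. No defining gene of the muscle, adipocyte, macrophage, neutrophil, B cell or T cell list was at 0 in either library. The part of these cells in the levels of factors that they also make was not tested.

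The direction of some group medians depended on the scaling, while a scaling shifts every log2 ratio nearly alike, so their order is fixed by construction. Under the 7 scalings tried the tip cell median ranged from -1.15 to -0.60 and that of the endothelial identity genes from -0.43 to 0.12. Setting the epithelial genes to a median of 0 moved the median of all genes to 0.54, and setting the endothelial identity genes to 0 moved it to 0.43. Esm1 and Pgf were called lower and Rgs5 and Abcc9 higher under all 7, while Apln and Dll4 fell short of the limit when either of those lists was set to 0, at log2 ratios of -0.69 and -0.51 with the epithelial genes and -0.81 and -0.63 with the endothelial identity genes.

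**Figure D5:**
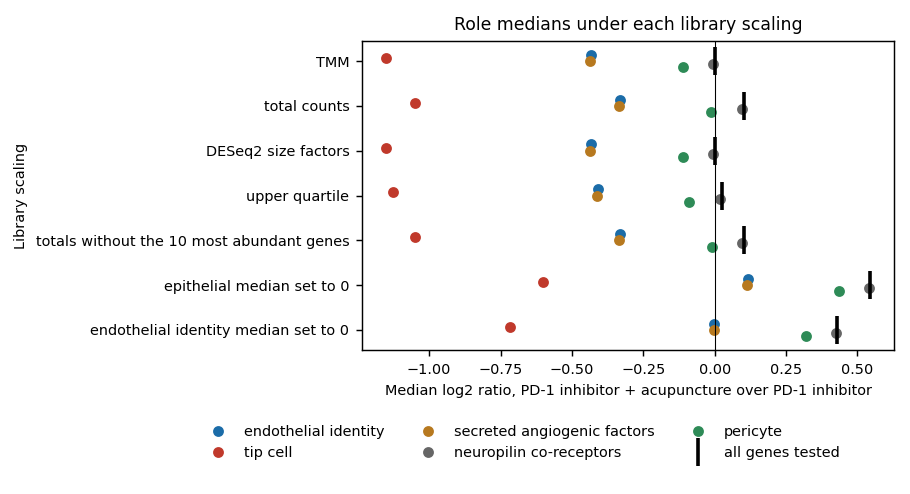
Median log2 ratio of the PD-1 inhibitor with acupuncture over the PD-1 inhibitor alone for each gene group (points) and for all genes tested (black bars) under 7 library scalings. The tip cell median lies between -1.15 and -0.60, and the distances between groups are nearly the same in each row by construction.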

How the data were processed

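The authors deposited raw read counts per gene symbol, 1 column per library and no normalization, and the submitters' processing notes list genome builds GRCm39 and mm39. Per the labels' protocols, libraries were built from total RNA with a SMARTer mRNA kit. The sources used here name no aligner, counter or strand setting, so reads of overlapping or antisense genes cannot be told apart. The table held 35602 symbols and 0 lines that name no gene, and the library without acupuncture was 1.74 times as deep as the other.

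Library totals were multiplied by TMM factors (1.04 with acupuncture, 0.966 without) from edgeR 4.0.16 in R 4.3.3, on genes whose counts summed to 20 or more. CPM are counts per 1000000 of these scaled totals, and log2 ratios carry a prior count of 2. Levels per kilobase use the union of exons in GENCODE M21, which the authors may not have used. Scalings by total counts, DESeq2 1.42.0 size factors, upper quartile, totals without the 10 most abundant genes and the epithelial list, 2 prior counts, 2 fold limits, 2 count minimums, ratios without intervals, summed counts and a thinned library were tried as alternatives, and a scaling to the endothelial identity genes was chosen after seeing the data. The scripts were tested on simulated counts with counting error only, in which the changed genes lay well past the 2-fold limit. That simulation did not cover ratios near the limit or differences between tumours.

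The 41 genes and the 23 other lists (281 entries of 274 genes, as some genes are in more than 1 list) were chosen with earlier results of these data known. All 41 genes are reported; in each vessel, pathway and stromal list the most counted gene, the gene farthest from 1 among those with at least 100 counts, and 5 or fewer called genes were named, with a few examples chosen after their values were seen. Lists of other cell types are given by counts and sums. Without molecular identifiers, reads are not independent molecules, so intervals cover counting error only. RefSeq GRCm38.p6 promoters matched 24 of the 41 genes by symbol. Intervals came from scipy 1.17.1 and numpy 2.4.6, tables from pandas 2.3.3 and figures from matplotlib 3.10.9, under Python 3.11.15.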

Additional observations from a re-analysis of the deposited data

How the results depend on the processing

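No paired analysis was possible because each group was 1 library. The counts of genes called lower (4) and higher (2) became 2 and 5 with the epithelial genes set to 0, 2 and 2 with the endothelial identity genes set to 0 (chosen after the data were seen), 14 and 2 at a 1.5-fold limit and 0 and 0 at a 4-fold limit. At total count scaling, and without the 10 most abundant genes, 3 were called lower, Dll4 being lost. The endothelial identity median log2 ratio (-0.43) was -0.21 from summed counts and 0.12 with the epithelial genes set to 0, which reversed it. The tip cell median (-1.15) was -0.89 from summed counts, -0.60 with the epithelial genes and -0.72 with the endothelial identity genes set to 0. The secreted factor median (-0.44) was -0.33 under both total count scaling and totals without the 10 most abundant genes, -0.0041 with the endothelial identity genes set to 0 and 0.11, reversed, with the epithelial genes. The pericyte median (-0.11) was 0.44 with the epithelial genes and 0.32 with the endothelial identity genes set to 0. The ratio of pericyte to endothelial counts, 1.05, was 1.40 without Mcam and Cspg4, 1.496 without the most abundant gene of each group and 1.25 from the medians. The ratio of tip cell to endothelial counts, 0.625, was 0.806 without Apln and 0.853 without Apln and Eng (both chosen after the data were seen). Moving the reference by construction shifts every log2 ratio alike; for the other changes the cause was not tested. Among the 6 called genes, 4 were called under every scaling and prior count tried, and none changed sign. Depth limited what could be seen for Higd1b, Sox17 and Erg, and with 1 library per group no value says how far 2 tumours of 1 group would differ.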
